A study of Mus musculus with 6 samples.

Results

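Of the 56748 genes in the deposited count tables, 9 genes of tissue macrophages are described here. They were found by symbol: the receptors Adgre1, Mrc1, Cd163 and Vsig4, the complement C1q chains C1qa, C1qb and C1qc, and the lysosomal genes Cd68 and Lyz2. All 9 passed the filter on low counts that left 18514 genes for testing. The libraries come from tibiae of female mice 12 weeks old, 3 samples labelled Col1a1+/-, that is, heterozygous for the gene of the alpha 1 chain of type I collagen, and 3 wild-type samples. The labels give no strain, no kind of Col1a1 allele and no treatment, although anti-TGF-beta treatment appears in the series title. Whether each sample is a separate animal is not stated, so p-values reflect the spread among these samples, which may be technical. Bone marrow was flushed out before the bones were frozen and disrupted, and libraries were made from polyadenylated RNA. Levels are CPM (counts-per-million) on library sizes scaled by TMM, the trimmed mean of M values. Fold changes have Col1a1+/- in the numerator, and adjusted p-values come from edgeR's quasi-likelihood test over all genes, with 0.05 as the threshold.

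Tissue macrophages are resident phagocytes that clear dying cells, debris and microbes. In bone they line bone surfaces beside osteoblasts, and in marrow maturing red cells gather around them. Adgre1 encodes F4/80, the adhesion receptor by which mouse macrophages are commonly recognised. Mrc1 encodes the mannose receptor, Cd163 the scavenger receptor for haemoglobin bound to haptoglobin, and Vsig4 a receptor for complement C3 fragments. C1q, the recognition protein of the classical complement pathway, is assembled from the products of C1qa, C1qb and C1qc, which macrophages make in most tissues. Cd68 encodes a lysosomal membrane glycoprotein that osteoclasts, relatives of macrophages, carry as well, and Lyz2 encodes lysozyme M, which neutrophils and monocytes also make in quantity.

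The C1q genes are neighbours on chromosome 4, all on the minus strand of the mouse genome build GRCm39, from which all gene positions below are taken: C1qb (ENSMUSG00000036905) spans 136607440 to 136613498, C1qc (ENSMUSG00000036896) 136617115 to 136620376 and C1qa (ENSMUSG00000036887) 136623228 to 136626114. The promoters of C1qb and C1qc are shown because these genes had the most alike values across the libraries. Those of Mrc1 and Lyz2 are shown because they hold the same letters. Of the macrophage genes, Mrc1 had the smallest ratio of the highest to the lowest library, and Lyz2 had one of the largest. The sequences are RefSeq promoters on the build GRCm38.p6, each 250 bases before to 50 bases after the start of the gene. They lie at chr4:136886151-136886450 (C1qb, minus strand), chr4:136892865-136893164 (C1qc, minus strand), chr2:14229164-14229463 (Mrc1, plus strand) and chr10:117282223-117282522 (Lyz2, minus strand). Capitals mark matches to AGGAAGT, read on either strand, the core letters bound by ETS-family factors such as PU.1, the product of the macrophage factor gene Spi1.
C1qb: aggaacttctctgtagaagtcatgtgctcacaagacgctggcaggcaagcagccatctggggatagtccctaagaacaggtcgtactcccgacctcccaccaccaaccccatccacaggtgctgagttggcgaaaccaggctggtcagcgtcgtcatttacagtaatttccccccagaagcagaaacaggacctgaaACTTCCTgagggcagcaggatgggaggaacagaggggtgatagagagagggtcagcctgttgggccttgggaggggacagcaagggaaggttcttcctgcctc
C1qc: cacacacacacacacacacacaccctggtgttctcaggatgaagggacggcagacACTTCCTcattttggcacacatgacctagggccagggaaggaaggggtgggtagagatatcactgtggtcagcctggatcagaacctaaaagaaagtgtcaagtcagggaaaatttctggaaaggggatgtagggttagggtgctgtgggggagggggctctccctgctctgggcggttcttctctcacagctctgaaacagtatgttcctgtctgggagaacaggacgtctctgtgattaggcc
Mrc1: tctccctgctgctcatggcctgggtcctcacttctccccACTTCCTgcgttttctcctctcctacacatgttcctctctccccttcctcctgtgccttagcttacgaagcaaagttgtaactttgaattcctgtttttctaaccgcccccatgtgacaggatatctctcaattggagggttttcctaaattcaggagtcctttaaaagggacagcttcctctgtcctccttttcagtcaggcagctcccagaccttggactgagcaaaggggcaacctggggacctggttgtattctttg
Lyz2: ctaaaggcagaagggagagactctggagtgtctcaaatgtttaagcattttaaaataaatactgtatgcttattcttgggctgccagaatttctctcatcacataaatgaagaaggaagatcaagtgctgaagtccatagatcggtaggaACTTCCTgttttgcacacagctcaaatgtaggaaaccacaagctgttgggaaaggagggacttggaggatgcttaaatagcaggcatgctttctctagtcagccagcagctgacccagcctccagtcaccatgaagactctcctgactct
The table of promoters holds 7 of the 9 genes, and 4 of the 7 have a match, each with AGGAAGT on the strand opposite to the gene, so that it reads ACTTCCT here. The match begins 53 bases before the start in C1qb, 100 in Lyz2, 195 in C1qc and 211 in Mrc1. The letters were chosen after these sequences were seen, and 9.35% of all 32851 promoters hold a match. In the windows of Cd68, Cd163 and Vsig4 the letters were not found. A match describes the sequence and is not evidence of binding. Spi1 itself, also picked after its values were seen, stood at 79.9 CPM on average and differed by 0.04 on the log2 scale (adjusted p = 0.892).

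The tissue and its other cells set the frame for these values. Total counts per library were 26830644 to 32379684. A list of 9 osteoblast markers took 8.15% to 9.13% of counts in Col1a1+/- and 3.76% to 5.39% in wild type, and 24 skeletal muscle genes took 2.12% to 4.37% against 6.74% to 8.66%. A list of 10 osteoclast markers took 0.761% to 0.965% against 0.52% to 0.631%. Wild-type replicate 1 stood apart: 12 neutrophil genes took 0.625% of its counts against 0.104% to 0.173% in the other 5 libraries, and 8 monocyte genes took 0.0932% against 0.0263% to 0.0402%. The 9 macrophage genes together took 0.0795% to 0.107% of counts in Col1a1+/- and 0.0708% to 0.131% in wild type, and the part of the other cell types in the results below was not tested except where a value is given. In bulk RNA, a difference in the number of macrophages and a difference in RNA per macrophage cannot be told apart.

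Per kilobase of exon, the macrophage genes spanned a wide range of levels. Lyz2 had the highest level at 393.9 CPM per kilobase over the 6 libraries, followed by Cd68 (104.8), C1qa (75.5), C1qb (52.3) and C1qc (33.5). The surface receptors stood lower, with Adgre1 at 6.03, Mrc1 at 5.88, Cd163 at 2.15 and Vsig4 at 1.40. This order held in 6 of 6 libraries down to Adgre1, and for Mrc1 over Cd163. Adgre1 was above Mrc1 in 3 of 6 libraries, and Cd163 above Vsig4 in 5 of 6, so these neighbours did not differ beyond their spread. The place of C1qc depends on the length used: the deposited exon length is 1931 bp, whereas its longest transcript in the GENCODE M21 annotation is 1203 bases, and with that length C1qc would stand at 53.7, just above C1qb at 52.3.

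**Figure D1:**
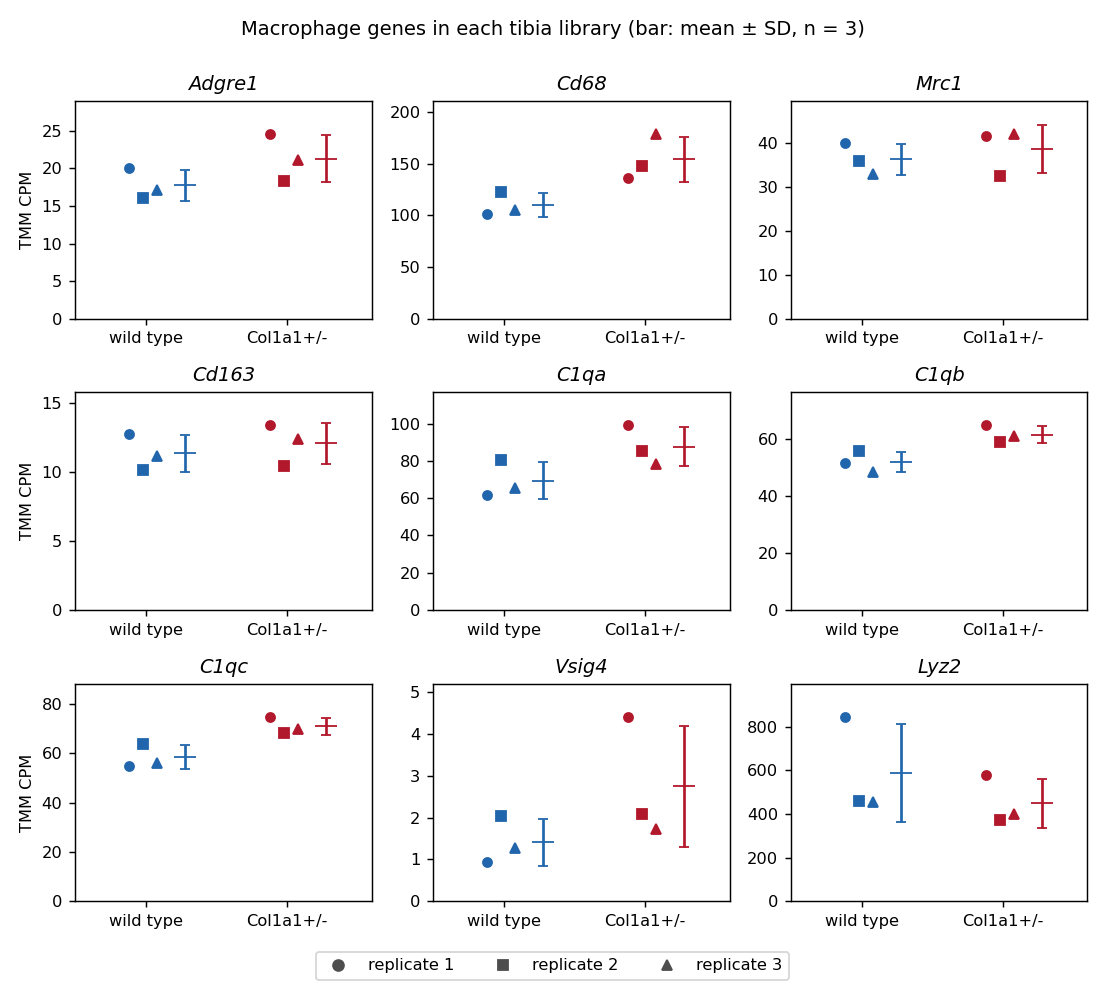
Level of each macrophage gene in TMM CPM (vertical axis, from 0) in the 3 wild-type and 3 Col1a1+/- libraries, with the mean and SD of each genotype beside the points. Cd68, C1qb and C1qc have all Col1a1+/- points above all wild-type points, whereas Lyz2 has its highest point in wild-type replicate 1 and Vsig4 in Col1a1+/- replicate 1.

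Of the 9 macrophage genes, 0 passed an adjusted p of 0.05 by edgeR, where 4.34% of all tested genes did (1.43% higher and 2.91% lower). At an unadjusted p under 0.05 there were 4 of 9 (Cd68 and the 3 C1q genes), against 22.8% of all tested genes. By DESeq2, 1 of the 9 was called (Cd68), where 2256 of all 18514 genes tested were. By limma-voom 0 of the 9 were called, where 957 of all genes were. The log2 fold change was above 0 for 8 of the 9 genes and below 0 for Lyz2, and the median was 0.27 beside -0.01 over all genes. All Col1a1+/- libraries lay above all wild-type libraries for 3 of the 9, where 14% of all tested genes did so, and for 0 of the 9 in the opposite direction, where 14.5% did (28.6% in either direction). The number above 0 was 5 of 9 with a skeletal muscle covariate (median 0.11), where Adgre1, Mrc1 and Cd163 stood at -0.11, -0.45 and -0.28. That fit called 0 genes in all, and the muscle shares of the genotypes did not overlap, so it cannot separate muscle from genotype. Scaling on osteocyte genes moved the median of all genes to -0.65, since 11 of the 11 osteocyte genes tested were above 0 with TMM (median 0.52). On that scale 8 of the 9 fold changes were below 0 and Vsig4 was at 0.51, while the median of the 9, at -0.38, still lay above that of all genes. The signs on this scale come from the shift of all genes, and the place of the 9 relative to other genes was similar on both scales.

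**Figure D2:**
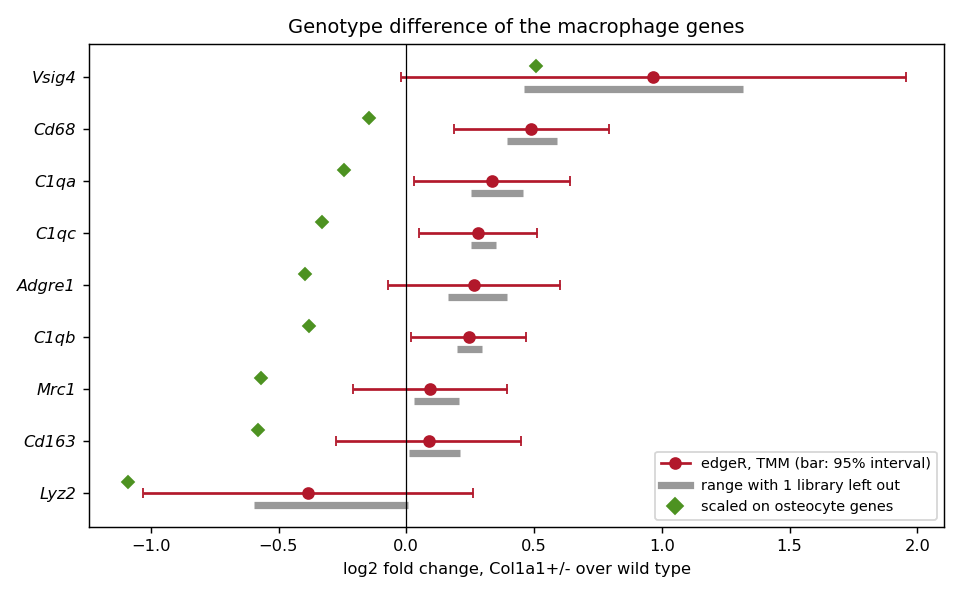
Log2 fold change of each macrophage gene, Col1a1+/- over wild type (horizontal axis), with its 95% interval (circles and bars, edgeR with TMM), the range when 1 library is left out (grey) and the value with libraries scaled on osteocyte genes (diamonds). The intervals of Cd68 and the C1q genes lie above 0 on the TMM scale, and the diamonds of all genes except Vsig4 lie below 0.

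None of the 4 surface receptors passed the threshold, and the genotypes overlapped for each of them. The log2 fold changes of Adgre1, Mrc1 and Cd163 were 0.09 to 0.27, and that of Vsig4 was larger and far less precise. Adgre1 (ENSMUSG00000004730; chromosome 17, 57665691 to 57790527, plus strand) stood at 24.6, 18.3 and 21.1 CPM in Col1a1+/- replicates 1, 2 and 3 and at 19.99, 16.1 and 17.1 CPM in the wild-type replicates. Replicate 1 was the highest library in each genotype, and Col1a1+/- replicate 2 lay below wild-type replicate 1. Mean levels of 21.3 ± 3.16 and 17.7 ± 2.03 CPM (SD, n = 3 each) gave a log2 fold change of 0.27 (95% interval -0.07 to 0.60, adjusted p = 0.332 by edgeR).

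Mrc1 (ENSMUSG00000026712; chromosome 2, 14234203 to 14336868, plus strand) stood at 41.6, 32.4 and 42.0 CPM in Col1a1+/- against 39.9, 35.8 and 33.0 CPM in wild type. The lowest library of the 6 was a Col1a1+/- one, and the highest as well. The log2 fold change was 0.09 (95% interval -0.21 to 0.39, adjusted p = 0.733). Cd163 (ENSMUSG00000008845; chromosome 6, 124281615 to 124307486, plus strand) stood at 13.4, 10.4 and 12.4 CPM in Col1a1+/- against 12.8, 10.1 and 11.2 CPM in wild type. In each genotype replicate 1 was highest and replicate 2 lowest. Its log2 fold change was 0.09 (95% interval -0.27 to 0.45, adjusted p = 0.799). By the ratio of the highest to the lowest library, Mrc1 and Cd163 were the lowest of the 9 genes, at 1.3 and 1.32. C1qb was almost the same, at 1.33.

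Vsig4 (ENSMUSG00000044206; X chromosome, 95290809 to 95337044, minus strand) was the lowest and most uneven of the 9, with raw counts of 30 to 147 per library. It stood at 4.41, 2.10 and 1.73 CPM in Col1a1+/- against 0.930, 2.03 and 1.28 CPM in wild type. Col1a1+/- replicate 1 alone was far above the rest, at 2.73 times the mean of the other 5 libraries, and without it the log2 fold change went from 0.97 (95% interval -0.02 to 1.95, adjusted p = 0.229) to 0.46 (adjusted p = 0.62). Without wild-type replicate 2, the highest wild-type library, the value was 1.32.

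The 3 C1q genes stood slightly higher in Col1a1+/-, by similar amounts, and none passed the threshold. C1qa took 99.0, 85.2 and 78.5 CPM in Col1a1+/- against 61.9, 80.7 and 65.7 CPM in wild type. The genotypes overlapped through wild-type replicate 2, which lay above Col1a1+/- replicate 3. The means of 87.6 ± 10.5 and 69.4 ± 9.92 CPM (SD, n = 3 each) gave a log2 fold change of 0.34 (95% interval 0.03 to 0.64, adjusted p = 0.177 by edgeR).

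C1qb took 64.9, 59.0 and 61.1 CPM in Col1a1+/- against 51.7, 55.8 and 48.6 CPM in wild type, with no overlap. On average it stood at 61.7 ± 3.00 against 52.1 ± 3.59 CPM (SD, n = 3 each), which is 0.24 on the log2 scale (95% interval 0.02 to 0.47, adjusted p = 0.183). C1qc took 74.8, 68.0 and 70.0 CPM against 55.0, 63.9 and 56.2 CPM, again with no overlap between the genotypes. Its averages of 70.9 ± 3.48 and 58.4 ± 4.82 CPM (SD, n = 3 each) differed by 0.28 on the log2 scale (95% interval 0.05 to 0.51, adjusted p = 0.141). C1qb and C1qc were also the steadiest of the 9 genes within a genotype. In Col1a1+/- the SD was 4.86% and 4.91% of their means, where for the other 7 genes it was 11.9% to 52.8%. The gap was smaller in wild type, with 6.9% and 8.27% against 9.64% to 39.7%. With 1 library left out, whichever it was, the fold changes of the 3 genes lay between 0.20 and 0.46 and their adjusted p between 0.127 and 0.424. Muscle RNA was lower in the same Col1a1+/- libraries, as given above, and with a muscle covariate the fold changes were 0.39, 0.11 and 0.22 for C1qa, C1qb and C1qc (smallest adjusted p = 0.835). With libraries scaled on osteocyte genes they were -0.25, -0.38 and -0.33.

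The 2 lysosomal genes had fold changes of opposite sign, and neither passed the threshold with TMM. Cd68 (ENSMUSG00000018774; chromosome 11, 69555039 to 69556979, minus strand) took 135.7, 147.5 and 178.5 CPM in Col1a1+/- against 100.7, 122.8 and 105.2 CPM in wild type, with no overlap. It averaged 153.9 ± 22.1 against 109.6 ± 11.7 CPM (SD, n = 3 each), a fold of 1.4 or 0.49 on the log2 scale (95% interval 0.19 to 0.79, unadjusted p = 0.0053, adjusted p = 0.0696 by edgeR). This p was the smallest among the 9 genes. The adjusted p of Cd68 was 0.0438 with library totals in place of TMM, 0.0172 with no filter on low counts and 0.0184 by DESeq2. Over all genes, 1327 of 18514 were called with library totals, 1472 of 32504 with no filter and 2256 of 18514 by DESeq2. On the osteocyte scale the log2 fold change of Cd68 was -0.14. Osteoclast markers, whose cells also carry Cd68, took a larger share of counts in every Col1a1+/- library than in any wild-type library, and their median log2 fold change was 0.47. Their part in the Cd68 difference was not tested.

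Lyz2 (ENSMUSG00000069516; chromosome 10, 117113236 to 117118226, minus strand) took 578.3, 371.5 and 399.5 CPM in Col1a1+/- against 844.8, 460.1 and 455.9 CPM in wild type. Replicate 1 was the highest library in each genotype, and wild-type replicate 1 was 1.84 times the mean of the other wild-type libraries. It averaged 449.7 ± 112 against 586.9 ± 223 CPM (SD, n = 3 each), which is -0.38 on the log2 scale (95% interval -1.03 to 0.26, adjusted p = 0.469). Without wild-type replicate 1 the log2 fold change was 0.005 (adjusted p = 0.992), and with a covariate for erythroid and neutrophil genes it was 0.23 (adjusted p = 0.576). On the osteocyte scale it was -1.09 (adjusted p = 0.0174). The libraries with the most Lyz2 were wild-type replicate 1 and Col1a1+/- replicate 1. By share of total counts, without TMM, they were also first and second in neutrophil (0.625% and 0.173%) and in monocyte transcripts. Wild-type replicate 3 was close behind in neutrophil transcripts, at 0.153%. Of the other 8 genes, wild-type replicate 1 was 1.21, 1.2 and 1.16 times the mean of the other wild-type libraries for Adgre1, Cd163 and Mrc1, and 0.562 to 0.991 times for Vsig4, Cd68 and the C1q genes. S100a9, a calcium-binding protein abundant in neutrophils, stood at 954.5 CPM in wild-type replicate 1 on the TMM scale. There wild-type replicate 3, at 314.1 CPM, lay above Col1a1+/- replicate 1 at 305 CPM, and the remaining libraries stood at 173.8 to 272 CPM. The part of neutrophils and monocytes in the Lyz2 level was not tested. Lyz2 is also the one gene of the 9 with a close copy: 15.4% of its 50-base windows and 1.97% of its 100-base windows occur in transcripts of Lyz1, and the counting left out reads that map to several places, so its level may be understated. Lyz1 averaged 3.18 CPM over the 6 libraries.

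**Figure D3:**
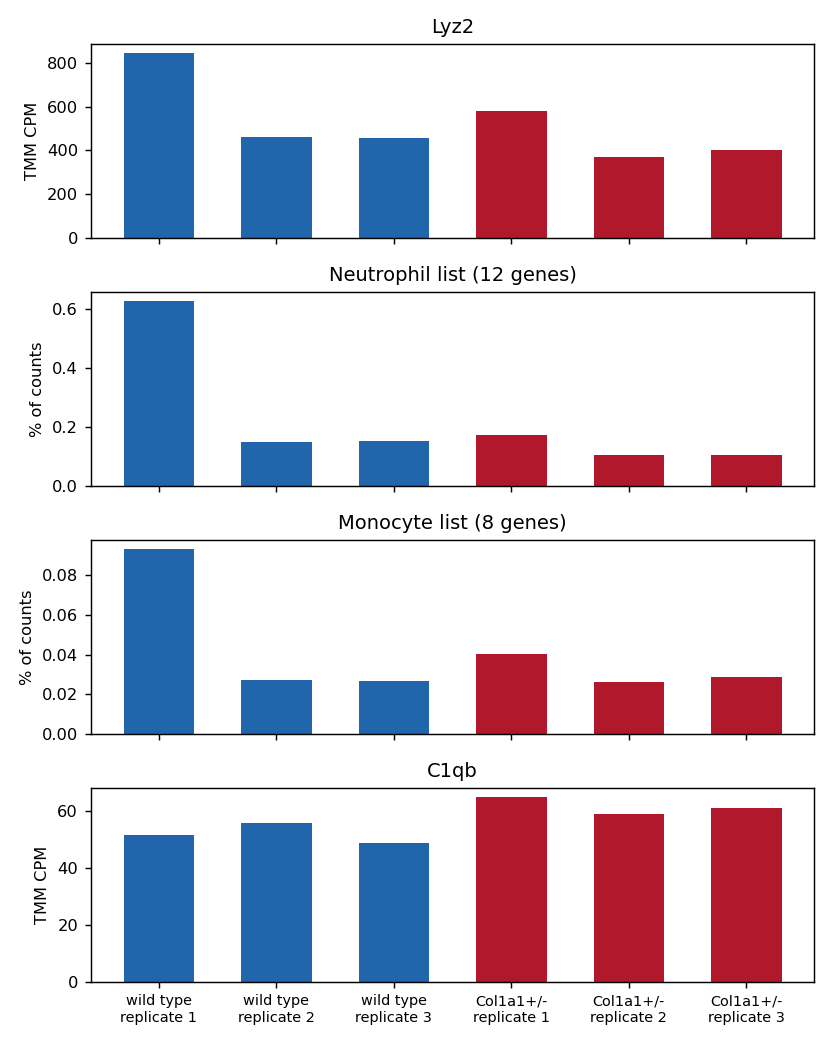
Lyz2 (TMM CPM), the share of counts of the neutrophil and monocyte lists (percent) and C1qb (TMM CPM) in each of the 6 libraries; every axis starts at 0. Wild-type replicate 1 has the highest bar for Lyz2 (844.8 CPM), neutrophil genes (0.625%) and monocyte genes (0.0932%), and not for C1qb (51.7 CPM).

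Ratios within a library do not depend on how libraries are scaled, so all 36 pairs of the 9 genes were compared. Among the C1q genes, C1qb and C1qc kept the steadier proportion. Per kilobase of deposited exon length, the ratio of C1qb to C1qc was 1.54, 1.54 and 1.55 in Col1a1+/- against 1.67, 1.55 and 1.54 in wild type. Only wild-type replicate 1 stood off this value. The ratio of C1qa to C1qb was 1.6, 1.51 and 1.34 against 1.25, 1.51 and 1.41, a wider range with overlapping genotypes. The mean ratio of Mrc1 to Cd163 was alike, at 2.74 ± 0.142 against 2.75 ± 0.261 (SD over 3 libraries of Col1a1+/- and of wild type, exact permutation p = 1). Single libraries ran from 2.53 to 3.04, both in wild type, and like means do not show that the proportion was constant.

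Of the 36 ratios, 2 did not overlap between genotypes, and both had Adgre1 above the line. Adgre1 to Lyz2 was 0.0173, 0.02 and 0.0214 in Col1a1+/- against 0.00962, 0.0142 and 0.0152 in wild type, 1.5 times as high on average in Col1a1+/-. Adgre1 to Cd163 was 3.1, 2.95 and 2.86 against 2.64, 2.68 and 2.57, 1.13 times as high. Each gave an exact two-sided permutation p of 0.1, the smallest that 3 libraries against 3 allow, and an adjusted p of 0.554 over the 36 pairs. Adgre1 to C1qb was 1.01 times the wild-type mean (exact permutation p = 1).

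**Figure D4:**
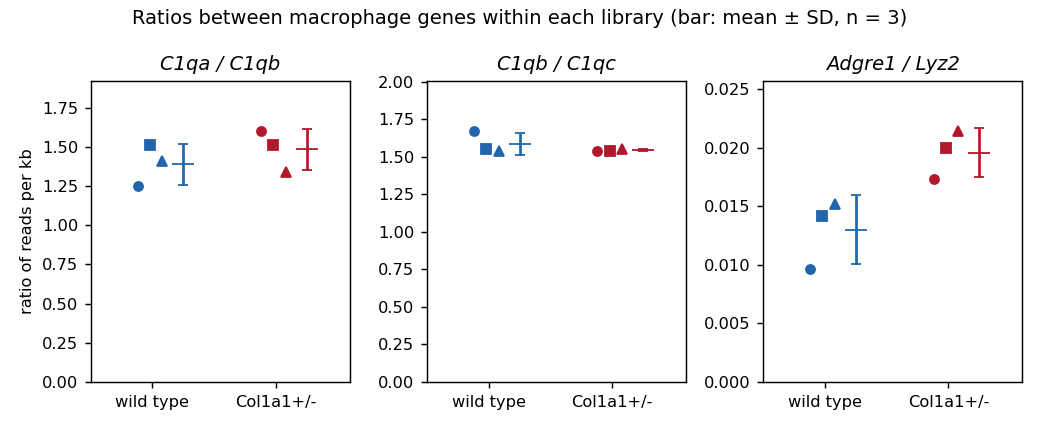
Ratios of reads per kilobase within each library (vertical axes, from 0) for C1qa to C1qb, C1qb to C1qc and Adgre1 to Lyz2, with the mean and SD of each genotype. The C1q ratios overlap between genotypes, and the Adgre1 to Lyz2 ratio lies at 0.0173 to 0.0214 in Col1a1+/- and at 0.00962 to 0.0152 in wild type.

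Of 22 further macrophage genes tested, 1 rose and 0 fell, 17 had a fold change above 0, and the median was 0.20. The genotypes did not overlap for 6 of the 22, all higher in Col1a1+/-, and 6 had an unadjusted p under 0.05. Of all genes tested, 49.1% had a fold change above 0, with the other shares as given above. The gene that rose was Stab1, which encodes the scavenger receptor stabilin-1. It took 156.3, 142.7 and 160.1 CPM in Col1a1+/- against 110.3, 110.4 and 115.9 CPM in wild type (0.45 on the log2 scale, SE 0.10, adjusted p = 0.0435). Csf1r, the receptor for the macrophage growth factor M-CSF, stood at 338.5 ± 27.9 against 273 ± 23.4 CPM (SD, n = 3 each; log2 fold change 0.31, adjusted p = 0.178). Tyrobp, an adaptor of activating myeloid receptors, had a log2 fold change of 0.09 (adjusted p = 0.727). The call of Stab1 held without wild-type replicate 1 (adjusted p = 0.0219) and was lost without Col1a1+/- replicate 1, 2 or 3 (0.157, 0.0514 and 0.132) and without wild-type replicate 2 or 3 (0.119 and 0.124). It was also lost with the muscle covariate, a fit that called 0 genes in all (log2 fold change of Stab1 0.325, adjusted p = 0.812). With the erythroid and neutrophil covariate the call of Stab1 was lost as well (log2 fold change 0.412, adjusted p = 0.106). On the osteocyte scale its fold change was -0.20, and the median of the list was -0.43. Timd4 and Marco, which mark other resident macrophage populations, had at most 26 and 10 raw counts per library and were not tested.

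Among 24 lysosomal genes 1 rose and 0 fell, with 20 above 0 and a median of 0.22. The genotypes did not overlap for 13 of the 24, all higher in Col1a1+/- (14% of all genes tested), and 7 had an unadjusted p under 0.05 (22.8% of all genes). Ctsh, which encodes the protease cathepsin H, took 148.3, 138 and 147.8 CPM in Col1a1+/- against 86.0, 99.9 and 92.4 CPM in wild type (log2 fold change 0.64, SE 0.10, adjusted p = 0.0238). With 1 library left out it was called without wild-type replicate 1 (adjusted p = 0.0115) and without Col1a1+/- replicate 2 (0.0212), and not without Col1a1+/- replicate 1 or 3 (0.121 and 0.0805) or wild-type replicate 2 or 3 (0.0635 and 0.0865). With the muscle covariate, a fit that called 0 genes in all, the log2 fold change of Ctsh was 0.576 (adjusted p = 0.801). With the erythroid and neutrophil covariate it was 0.577 (adjusted p = 0.0462). On the osteocyte scale the log2 fold change of Ctsh was 0.02, and the median of the lysosomal list was -0.42. With the muscle covariate that median was 0.13. Psap, the precursor of the saposins that aid lipid breakdown, had the highest level of the list and stood at 1581 ± 60.5 against 1575 ± 36.7 CPM (SD, n = 3 each; log2 fold change 0.01, adjusted p = 0.988). Ctsz, cathepsin Z, stood at 0.25 (adjusted p = 0.363).

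Of 19 complement genes besides C1q, 0 passed the edgeR threshold, with 11 above 0, a median of 0.08 and 5 at an unadjusted p under 0.05. Cfd, the serine protease factor D, had a log2 fold change of 0.21 (adjusted p = 0.831). Of 9 ligands that act on macrophages, 0 passed (2 at an unadjusted p under 0.05), with a median of 0.38. Csf1, which encodes M-CSF, stood at 173.4 ± 11.8 against 130.5 ± 21.4 CPM (SD, n = 3 each; log2 fold change 0.41, adjusted p = 0.12), and Gas6, a bridging ligand for the uptake of dying cells, at -0.01 (adjusted p = 0.981).

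The antigen presentation genes of MHC class II had fold changes above 0 in 7 of 7 cases, between 0.11 and 0.29, and 0 passed (1 at an unadjusted p under 0.05). Cd74, the invariant chain, stood at 0.23 (adjusted p = 0.37) and H2-Eb1 at 0.28 (adjusted p = 0.308). Of 9 genes of haem iron recycling, to which Cd163 supplies haemoglobin, 3 were above 0 and 0 passed (1 at an unadjusted p under 0.05), with a median of -0.06. Their ferritin chains stood on opposite sides, Fth1 at -0.40 (adjusted p = 0.243) and Ftl1 at 0.27 (adjusted p = 0.283). Of 8 genes of inflammatory and 7 of alternative activation, 4 each passed the filter on low counts, and 0 of these were called (0 at an unadjusted p under 0.05). Il1b, the cytokine interleukin 1 beta, stood at 1.83 ± 0.647 against 3.84 ± 2.63 CPM (SD, n = 3 each), and Tnf at 1.14 ± 0.699 against 1.55 ± 1.01 CPM. Clec10a, a galactose-binding lectin, took 15.2 ± 3.98 against 11.1 ± 2.74 CPM (SD, n = 3 each), a log2 difference of 0.46 (adjusted p = 0.282) and Retnla stood at -0.73 (adjusted p = 0.48). All macrophage-related lists together held 104 tested genes. By DESeq2, 7 of these were called higher and 1 lower, where 788 and 1468 of all 18514 genes were. By edgeR 2 and 0 of the 104 were called, where 1.43% and 2.91% of all genes were.

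Relatives of Mrc1, Adgre1 and Lyz2 followed no common direction, with 2 of 6 above 0 and 0 called (1 at an unadjusted p under 0.05). Mrc2, a collagen uptake receptor of the mannose receptor family, took 402.7, 368.4 and 410.6 CPM in Col1a1+/- against 204.7, 329.5 and 280.5 CPM in wild type. The genotypes did not overlap, and its log2 fold change was 0.54 (adjusted p = 0.108) beside 0.09 for Mrc1. Adgre5, of the Adgre1 family, stood at 0.16 (adjusted p = 0.52).

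**Figure D5:**
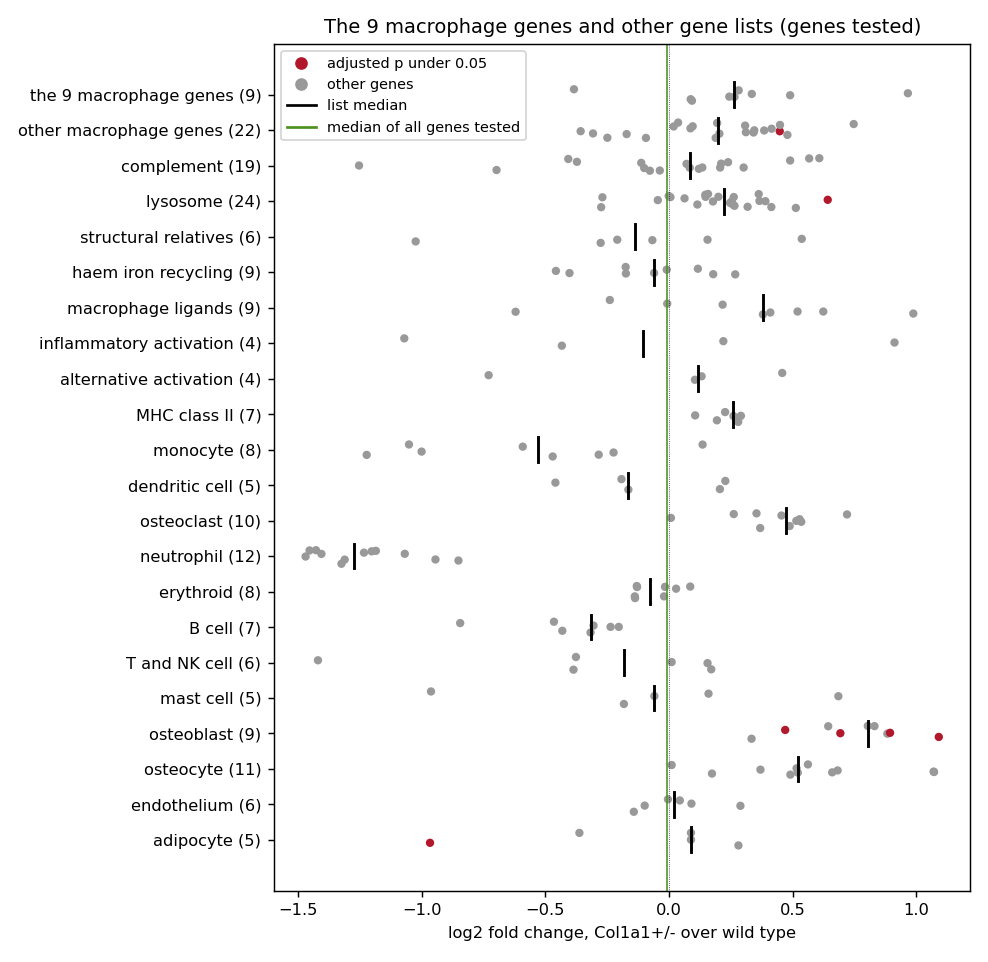
Log2 fold change, Col1a1+/- over wild type (horizontal axis), of every tested gene of the macrophage lists and of lists of other cell types; skeletal muscle is left out because its values reach -6.1. The median (black bar) is 0.27 for the 9 macrophage genes, 0.47 for osteoclast, 0.80 for osteoblast and -1.27 for neutrophil genes, and -0.01 for all genes tested (green line).

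Medians of the lists of other cell types lay on both sides of 0, some farther from it than the median of the 9 genes and some nearer. Of 10 osteoclast markers, 10 were above 0 and 0 passed (6 at an unadjusted p under 0.05), among them Ctsk, cathepsin K, at 0.49 (adjusted p = 0.179). Of 12 neutrophil markers 0 were above 0 and 0 passed (4 at an unadjusted p under 0.05), and of 8 monocyte markers 1 was above 0 and 0 passed (1 at an unadjusted p under 0.05). Of 24 muscle genes 0 were above 0 and 11 passed (24 at an unadjusted p under 0.05), with a median of -1.49. Of 9 osteoblast genes 9 were above 0 and 4 passed (6 at an unadjusted p under 0.05). Lists for B cells, T and NK cells, dendritic cells, mast cells, erythroid cells and endothelium held 0 called genes and had medians between -0.32 and 0.02. Their unadjusted p was under 0.05 for 3 B cell genes, 1 T and NK cell gene and 0 genes of the other lists. Of 5 adipocyte genes, 1 fell: Lpl, a lipase that muscle makes as well, at -0.97 (adjusted p = 0.0449). With the muscle covariate it stood at -0.07 (adjusted p = 0.978), but that fit called 0 genes in all. Muscle content and genotype cannot be told apart there, and the part of muscle in the Lpl difference was not tested. The call was lost without Col1a1+/- replicate 1 or 3 (0.154 and 0.146) and without wild-type replicate 2 or 3 (0.105 and 0.12). Without Col1a1+/- replicate 1 or wild-type replicate 3, 0 genes were called in all.

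The pattern of each macrophage gene over the 6 libraries was compared with every other gene of at least 5 CPM on average, by the root mean square difference of log2 CPM after each gene was centred on its own mean. The nearest macrophage gene to C1qb was C1qc, at 0.043, and of 11408 other genes 18 lay nearer to C1qb and 7 nearer to C1qc. Mrc1 and Cd163 were each other's nearest, at 0.089, with 198 and 156 other genes nearer. Adgre1 lay nearest to Cd163 (0.095). Cd68 was nearest to C1qc, at 0.175, with 1085 other genes nearer, and Lyz2 to Cd163, at 0.328, with 1231 nearer.

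Beyond the 9 genes, the nearest to Lyz2 were Myo1g, a myosin of blood cells, at 0.075 and Emilin2 at 0.076. Nearest to Adgre1 were Dhx8 (0.056) and Cd4 (0.057), and to Cd68 they were Tax1bp3 (0.031) and Ddr2, a collagen receptor (0.043). For C1qa they were Tmem170 and Snhg12, for C1qb Stard13 and Ppan, and for C1qc Sumf1 and Snhg5, at 0.02 to 0.052. Mrc1 had Rell1 and Klhl20 and Cd163 had Kri1 and Mtmr12, at 0.021 to 0.033. Vsig4 had no close match, with Chadl at 0.191 and Prr7 at 0.222. With 6 libraries and patterns this flat, many genes lie within such distances, and the names describe these libraries only.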

How the data were processed

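The authors deposited unnormalized read counts for each library. featureCounts 2.0.3 produced them from exons of GRCm39 as annotated in Ensembl 107, per the file headers, after Trimmomatic 0.39, HISAT2 2.2.1 and SAMtools 1.20, per the submitters' processing notes; the settings of these tools were not given in the sources used. The recorded command sets no strand and does not ask for counting by pairs, so each mate can count as 1 read: counts of 1 to 20 were even in 61.8% to 64.2% of cases. Multi-mapping reads were left out. None of the 9 genes shared exon bases with another gene of that annotation.

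Symbols came from a table on an earlier build by gene identifier (52073 of 56748 matched, 91.8%). Genotypes were compared in R 4.3.3 with edgeR 4.0.16: filterByExpr by genotype (99.87% to 99.9% of counts kept), TMM (factors 0.892 to 1.1), the robust quasi-likelihood F test over all genes, Benjamini-Hochberg adjusted p under 0.05, two-sided. The script was tested on simulated data. SEs were derived from the fold change and F. Log2 CPM for patterns used a prior count of 2. DESeq2 1.42.0, limma-voom (limma 3.58.1) and the other alternatives are given in the closing section. Replicates differed by 23.3 to 78.1 times counting variance (chi-square per degree of freedom), so none was a copy of another.

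The 9 genes, the other gene lists and the choice of alternatives were made with earlier results of these data known. Besides the 9, the text names of each macrophage-related list the 2 tested genes with the highest level per kilobase and those called, and the 2 genes nearest in pattern to each of the 9; of lists of other cells it names fewer. The result of 1 gene under this rule is not reported here. Timd4, Marco, Lyz1, Spi1 and the choice among lists of other cells were named after their values were seen.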

Additional observations from a re-analysis of the deposited data

How the results depend on the processing

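Of 135 comparisons of the 9 genes with the alternatives, 119 kept direction and side of the threshold. With libraries scaled on osteocyte genes the log2 fold changes of Adgre1, Cd68, Mrc1, Cd163, C1qa, C1qb and C1qc were -0.395, -0.144, -0.567, -0.58, -0.245, -0.38 and -0.331, and Lyz2 was called at -1.09. With a muscle covariate Adgre1, Mrc1 and Cd163 were at -0.111, -0.45 and -0.281. Lyz2 was at 0.23 with the erythroid and neutrophil covariate and at 0.005 without wild-type replicate 1. Cd68 was called with library totals (0.579), with no low-count filter (0.484) and by DESeq2 (0.491). The cause of these changes was not tested.

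With 1 library left out, log2 fold changes lay at 0.164 to 0.393 for Adgre1, 0.394 to 0.589 for Cd68, 0.03 to 0.207 for Mrc1, 0.011 to 0.212 for Cd163, 0.255 to 0.457 for C1qa, 0.198 to 0.297 for C1qb, 0.255 to 0.351 for C1qc, 0.46 to 1.316 for Vsig4 and -0.596 to 0.005 for Lyz2, and 0 of the 9 genes were called by edgeR (1 to 5 at an unadjusted p under 0.05). Of the 11 ratios recomputed, Adgre1 to Vsig4 moved most with 1 library left out or with medians, from 0.502 to 0.83 of the wild-type value around 0.619. With all libraries 1 of the 9 was called with library totals, with no filter, by DESeq2 and on the osteocyte scale.

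Over all genes, 265 were called higher and 538 lower (33% of calls higher). The numbers were 588 and 739 with library totals (44.3%), 577 and 895 with no filter, 788 and 1468 by DESeq2, 99 and 684 with the erythroid and neutrophil covariate (12.6%), 12 and 2821 on the osteocyte scale (0.424%) and 0 and 0 with the muscle covariate (1121 at an unadjusted p under 0.05). Leaving out 1 library gave 0 to 594 higher and 0 to 1172 lower: edgeR called 0 when Col1a1+/- replicate 1 or wild-type replicate 3 was left out (3275 and 3239 at an unadjusted p under 0.05), and in all 8 for wild-type replicate 2, 44 for Col1a1+/- replicate 3, 930 for Col1a1+/- replicate 2 and 1766 for wild-type replicate 1. edgeR with DESeq2 size factors and limma-voom stayed within 1.5 times the main numbers. In the macrophage-related lists 2 genes were higher and 0 lower; the numbers were 5 and 1 with library totals, 6 and 1 with no filter, 7 and 1 by DESeq2, 0 higher with the muscle covariate, 1 lower with the erythroid and neutrophil covariate, 0 and 12 on the osteocyte scale, and 0 to 7 higher and 0 to 3 lower with 1 library left out.

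Same-numbered samples are not said to be paired, and their deviations from the genotype means correlated at 0.107, 0.041 and -0.122, with 3 of 6 libraries closest to their own number. With the replicate number as a block, 37 genes were higher and 89 lower, 0 of the macrophage-related genes were called higher, and 0 of the 9 genes were called. At raw counts of 30 to 147, depth limits Vsig4 most, while the other genes had at least 279 counts per library.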
